A study of Homo sapiens with 16 samples.

Results

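The regions described here are the ChIP-Seq peaks that lie inside protein-coding genes and away from the annotated start of any gene. Peaks of 3 lists were pooled and overlapping peaks were merged into 6222 regions. A region was taken as a member if it overlapped the body of a protein-coding gene by at least 1 bp and its edge lay more than 1 kb from the start of every annotated gene of any type. Genes that the annotation leaves out do not enter this rule. There were 731 such regions (11.7% of all merged regions), in 672 genes, of which 482 overlapped an exon, 234 lay in introns and 15 lay within 1 kb of a gene end. The cells were HEK293T, a human embryonic kidney line, in 3 genotypes, and no treatment was given. The wild-type list held 1468 peaks, the list of POLK-/- cells, which lack DNA polymerase kappa, held 2451, and the list of DDX23-/- cells, which lack a DEAD-box helicase of the spliceosome, held 5945. Each genotype had 1 list, so no difference between genotypes has a replicate check and no p was computed. The labels name Polk as the antibody, whereas the protocol names an anti-FLAG gel and no tag is stated for these cells, so the protein pulled down is uncertain, and POLK-/- cells have peaks too. Whether a knockout line is 1 clone, and which control each list was called against, is not given in the sources used here.

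A gene is annotated from the outermost of its transcript starts, but many genes start transcription at several places, and RNA polymerase II then leaves from a promoter that lies inside the annotated body. Such promoters are often rich in G and C and hold short elements such as the GC box, bound by the Sp1 family, or the CCAAT box, bound by NF-Y. Genes of tRNAs also lie inside protein-coding genes, and RNA polymerase III reads them from A and B boxes within the tRNA sequence itself.

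The sequences below are shown because the strongest members fell into these classes. Stretches that overlap an annotated untranslated region were passed over. The first set holds 5 members that were more than 1 kb from any transcript start, were in all 3 lists with a high −log10 p in each, and carried both an A and a B box. Each is given on the strand of the boxes, from 8 bases before the A box to 12 bases after the B box (GRCh37), with both boxes in capitals.
ENSG00000289768 (chr1:161582507-161582579, plus strand): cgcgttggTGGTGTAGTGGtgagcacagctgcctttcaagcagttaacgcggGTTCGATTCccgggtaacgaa
OR1F1 (chr16:3241500-3241573, plus strand): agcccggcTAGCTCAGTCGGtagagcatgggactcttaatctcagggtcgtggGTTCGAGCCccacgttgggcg
ARMH4 (chr14:58706613-58706686, minus strand): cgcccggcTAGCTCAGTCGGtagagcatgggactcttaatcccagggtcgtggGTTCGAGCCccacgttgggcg
SLC47A1 (chr17:19411493-19411565, plus strand): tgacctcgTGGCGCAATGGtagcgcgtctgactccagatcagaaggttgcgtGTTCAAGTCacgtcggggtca
SCAND3 (chr6:28557155-28557227, plus strand): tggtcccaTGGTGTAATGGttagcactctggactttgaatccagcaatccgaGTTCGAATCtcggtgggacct
The stretches in OR1F1 and ARMH4, which lie on different chromosomes, carried the same letters in both boxes.

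The second set holds the 100 bases before the canonical start of 4 genes whose internal start carried a member in all 3 lists, taken among members whose start was also found in RefSeq. They are not the strongest such members, since RAB11A and others were passed over. GC boxes (GGGCGG, either strand) and CCAAT boxes (either strand) are in capitals.
RRM2 (chr2:10262766-10262865, plus strand): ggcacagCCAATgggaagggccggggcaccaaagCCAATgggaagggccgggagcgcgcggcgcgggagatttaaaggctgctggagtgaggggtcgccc
TIGAR (chr12:4430279-4430378, plus strand): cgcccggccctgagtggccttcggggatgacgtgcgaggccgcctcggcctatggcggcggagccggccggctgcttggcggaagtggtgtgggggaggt
SLC40A1 (chr2:190445513-190445612, minus strand): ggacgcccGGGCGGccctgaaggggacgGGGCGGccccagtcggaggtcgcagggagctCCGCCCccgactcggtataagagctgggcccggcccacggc
PHYH (chr10:13342065-13342164, minus strand): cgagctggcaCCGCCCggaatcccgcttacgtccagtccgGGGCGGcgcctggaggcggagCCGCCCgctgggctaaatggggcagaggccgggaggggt
RRM2, the small subunit of ribonucleotide reductase, had 2 CCAAT boxes and no GC box in this stretch. SLC40A1, the iron exporter ferroportin, and PHYH, which starts the breakdown of phytanic acid in peroxisomes, had 3 GC boxes each. TIGAR, a sugar phosphatase induced by p53, had neither.

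The third set gives 101 bases about the summit, on the plus strand, of the strongest member away from transcript starts in the wild-type list alone, in SLC22A23, and in the POLK-/- list alone, in CA5A.
SLC22A23 (chr6:3356458-3356558): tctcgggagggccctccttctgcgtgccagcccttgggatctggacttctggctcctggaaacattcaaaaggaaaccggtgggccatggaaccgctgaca
CA5A (chr16:87954990-87955090): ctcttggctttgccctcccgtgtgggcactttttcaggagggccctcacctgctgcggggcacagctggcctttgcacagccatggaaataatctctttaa

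Most members were not away from starts once single transcripts were considered. Of the 731 members, 546 lay within 1 kb of an annotated transcript start (74.7%, exact 95% interval 71.4 to 77.8), against 7.80% of the 4151515 windows of 300 bp in the genome that meet the same rule. The share was 96.7% among exon members (466 of 482), 30.8% among intron members (72 of 234) and 53.3% among gene end members (8 of 15). In windows of the same classes it was 31.9%, 4.93% and 8.62%. Exons made up 65.9% of the members (62.4 to 69.4) but 10.4% of the windows, and introns 32.0% (28.6 to 35.5) against 87.8%, while gene ends took 2.05% (1.15 to 3.36) against 1.76%. Intervals of shares are exact binomial ones and cover counting error only. Of the 482 exon members, 454 overlapped an untranslated stretch and 210 a coding stretch. Of the 185 members more than 1 kb from any transcript start, 8.65% were exon members. Members were placed as whole regions of varying width, unlike the windows of 300 bp. When a region was placed by its strongest summit alone, the exon share was 44.4% and the intron share 54.3%, and with exons of canonical transcripts alone they were 50.9% and 47.1%.

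**Figure D1:**
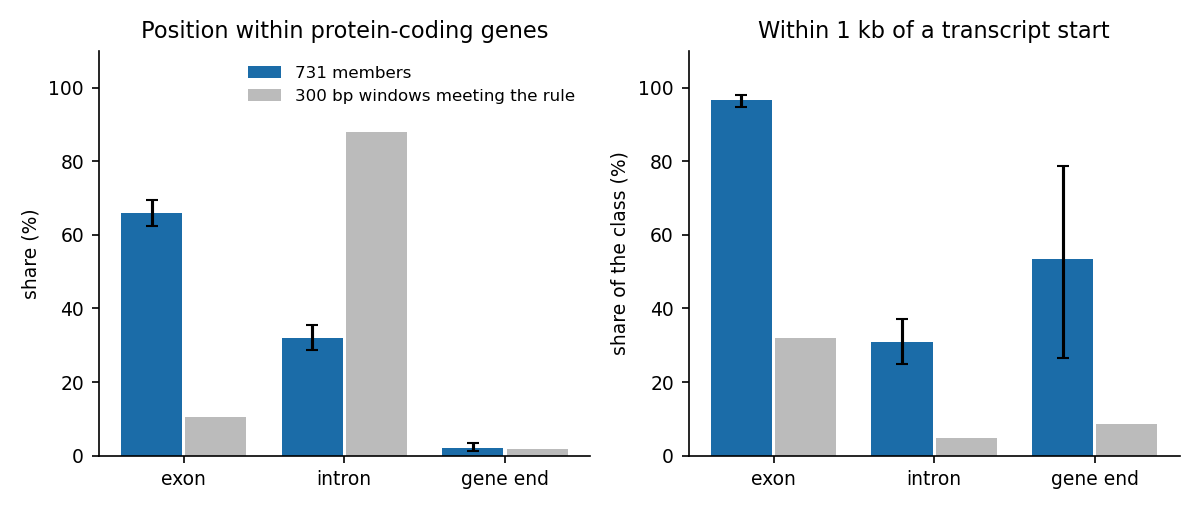
Left, the share (%) of the 731 members and of the 300 bp windows meeting the rule that lay in exons, introns or near gene ends. Right, the share (%) of each class within 1 kb of an annotated transcript start. Bars start at 0 and error bars are exact 95% binomial intervals. Members, placed as whole regions, were in exons in 65.9% of cases against 10.4% of windows. Of the 185 members more than 1 kb from any transcript start, 8.65% were in exons.

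The summits of these 546 members were centred on transcript starts, with 86.1% within 250 bp of the nearest. The median summit lay 1 bp upstream of the nearest start (quartiles 60 bp upstream and 29 bp downstream), and 54.2% lay within 50 bp of it. The 4983 merged regions at gene starts had a median of 2 bp upstream (50 upstream, 22 downstream) and 59.3% within 50 bp. The nearest starts belonged mainly to the host gene, which had a transcript start within 1 kb of 538 of the 546 members. In 406 of them (74.4%) this was the start of the canonical transcript, the one the annotation takes as representative. Of the 455 members whose host had an entry among the RefSeq promoters, 376 (82.6%) had that RefSeq start, matched by sequence, within 1 kb, whereas 2 of 151 (1.32%) of the other members did. Those other members were defined by their distance from annotated transcript starts, so this contrast is no independent check of the split. The outermost start of the host had a merged region within 1 kb for 98 of the 546 (17.9%). The median distance from that outermost start to the summit was 13348 bp.

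**Figure D2:**
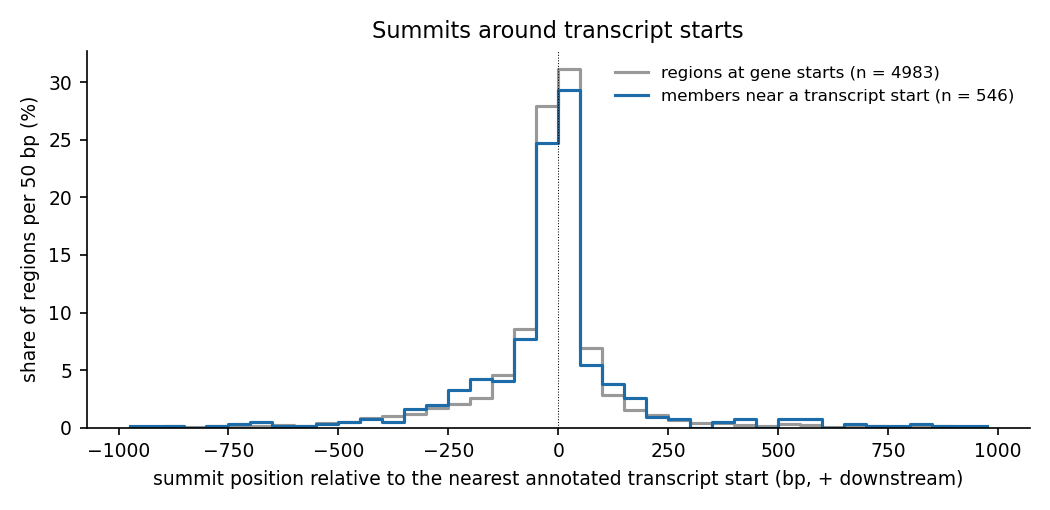
Share of regions (%, in bins of 50 bp) by the position of the summit relative to the nearest annotated transcript start (bp, positive downstream), for the 546 members within 1 kb of a transcript start and the 4983 merged regions at gene starts. Both curves peak at the start, and 54.2% and 59.3% of summits lie within 50 bp of it.

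RAB11A, a small GTPase of recycling endosomes, carried the strongest member at an internal start. The region chr15:66161031-66162010 had 240, 379 and 384 fragments at the summit in wild-type, POLK-/- and DDX23-/- cells. It held the canonical start, which lies far inside the annotated gene because another transcript begins upstream, and the summit was 143100 bp from that outermost start. The RAB11A region also held an A and B box pattern. Its summit lay 302 bp upstream of the nearest transcript start, and the GC content about the summit was 51.67%. The member assigned by position to RPS29, a protein of the small ribosomal subunit, had 66, 215 and 282 fragments at chr14:50052979-50053802. Its summit lay 12588 bp into the gene. That summit was 196 bp upstream of the nearest annotated transcript start. Whether the peak belongs to the RPS29 promoter or to another gene was not tested. In both genes the wild-type list had the fewest fragments, which are not scaled for the depth of the lists. Enrichment, the scaled fragments over the local background, is free of that scale. In RAB11A it was 65.98, 55.81 and 63.32 in wild-type, POLK-/- and DDX23-/- cells, and in RPS29 it was 68.2, 158 and 62.0.

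The 3 strongest members of the DDX23-/- list alone were all exon members at internal starts. ESRRG, an orphan nuclear receptor, had 99 fragments and an enrichment of 21.8 at chr1:216896735-216897133, at its canonical start. PRDM2, a zinc finger protein of the PR domain family, had 72 fragments and 36.7, and SLC29A1, a nucleoside transporter, had 74 and 33.2. No peak was called at these 3 places in wild-type or POLK-/- cells. The strongest POLK-/- only member lay in PSG9, a pregnancy-specific glycoprotein, with 104 fragments and an enrichment of 21.4, and it was within 276 bp of a start of the pseudogene CEACAMP10. The 101 bases about its summit had 94 near-identical copies elsewhere in the genome.

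CDC14A, a phosphatase of the cell cycle, held 3 exon members at transcript starts. Its member at chr1:100816875-100817342 was in all 3 lists, with 11, 26 and 33 fragments in wild-type, POLK-/- and DDX23-/- cells. The next, at chr1:100817815-100818278, had 11 fragments in wild-type and 39 in DDX23-/- cells, and the last, at chr1:100828596-100828825, had 22 in DDX23-/- cells alone. These were weak members, below or near the median of 13, 27 and 33 fragments of all members in the 3 lists, except for the 39 fragments in DDX23-/- cells.

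NTHL1, a DNA glycosylase that removes oxidised pyrimidines, showed another arrangement. Its 4 members were in both knockout lists and not in the wild-type list, and they sat on exons rather than on the promoter alone. The member at chr16:2096040-2096418 covered all 239 bases of exon 2, with 289 fragments at the summit in POLK-/- and 194 in DDX23-/- cells. The member at chr16:2094542-2094892 covered all 171 bases of exon 3 (182 and 82 fragments), and that at chr16:2093471-2093825 all 160 bases of exon 4 (172 and 84 fragments). Their summits lay 14, 4 and 6.5 bp from the middle of the exon. The fourth, at chr16:2089848-2090335 near the gene end, covered exon 5 and 201 of the 228 bases of exon 6, with 117 and 57 fragments. A region that is no member, because it holds the gene start, covered exon 1 with 131 and 73 fragments, also in both knockouts only. So every exon of the canonical transcript was covered in whole or in part. POLK-/- cells had more fragments than DDX23-/- cells at each, without scaling for the depth of the lists. Of all protein-coding genes, NTHL1 was the one with summits in more than 2 canonical exons, 5 of them, while 7 genes had summits in 2 and 1843 in 1. This count was made after the NTHL1 values had been seen.

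The local background in NTHL1 was high as well. The background used by the peak caller in the POLK-/- list was 18, 12, 7 and 5 fragments at the members from exon 2 to the gene end, against a median of 2.00 over all regions of that list. In the DDX23-/- list it was 6, 8, 3 and 2.55, also against a median of 2.00. Enrichment was therefore moderate, 11.8, 11.2, 18.1 and 17.2 in POLK-/- cells and 21.3, 6.76, 18.5 and 14.8 in DDX23-/- cells. The part of the background in this pattern was not tested.

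**Figure D3:**
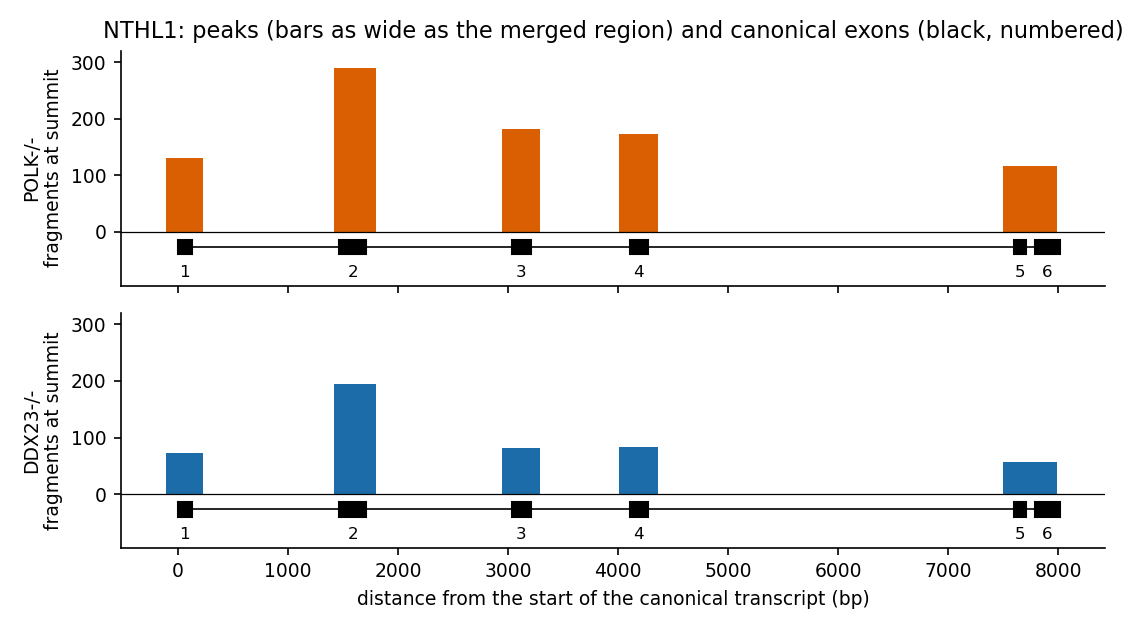
Fragments at the summit (y axis) of each merged region in NTHL1, drawn as a bar as wide as the region, against the distance from the start of the canonical transcript (bp), with the POLK-/- list above and the DDX23-/- list below. Black boxes are canonical exons 1 to 6. Each of the 5 regions lies over 1 exon or, at the gene end, over exons 5 and 6, with the highest value at exon 2 (289 and 194 fragments).

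The 185 members more than 1 kb from any transcript start were a mixed group. They comprised 162 intron members, 16 exon members and 7 gene end members, and their median summit lay 26823 bp from the start of the host. In 138 of them (74.6%) the peak was in a single list, 28 were in 2 lists and 19 (10.3%, 6.30 to 15.6) in all 3. The number in the DDX23-/- list alone was 89 (48.1%), in the wild-type list alone 29 (15.7%) and in the POLK-/- list alone 20 (10.8%). Among all merged regions these shares were 55.4%, 1.62% and 2.89%. Members near transcript starts were in a single list in 66.7% of cases and in all 3 lists in 13.2%. Over all merged regions, 59.9% were in 1 list and 17.8% in all 3. Of all 731 members, 68.7% were in 1 list and 12.4% in all 3.

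The 19 members in all 3 lists and away from transcript starts were dominated by tRNA-type sequence. A pair of boxes, A before B on the same strand at a distance of 24 to 110 bases, lay within 150 bp of the summit in 16 of the 19 (84.2%, 60.4 to 96.6), against 9 of the other 166 members away from transcript starts (5.42%, 2.51 to 10.0) and 0.871% of the windows. Over all merged regions in 3 lists the share was 22.8%, and 5 of the 72 members at internal starts in all 3 lists held the pattern somewhere in the region. The pattern allowed for bases that vary between tRNA genes and was written after the peaks had been seen. With the narrower letters fixed earlier (A box GCNNAGNGG, B box GTTCGANNC) 2 of the 19 held it. By the rule, no annotated gene started within 1 kb of these members. A tRNA gene at such a pattern would therefore be absent from the annotation used. Being away from transcript starts refers to that annotation alone.

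These members included some of the strongest. In ENSG00000289768, a gene without a symbol, the region chr1:161582100-161583048 had 221, 349 and 386 fragments in wild-type, POLK-/- and DDX23-/- cells. In OR1F1, an olfactory receptor gene, chr16:3241100-3242381 had 167, 360 and 377. In ARMH4 chr14:58706228-58707070 had 147, 284 and 369, and in SLC47A1, the MATE1 efflux transporter, chr17:19411196-19411931 had 141, 323 and 318. All 4 are far above the members' medians of 13, 27 and 33 fragments in the 3 lists.

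The pattern occurred several times within some hosts. POM121L2, a gene related to a nuclear pore protein, held 5 intron members and every one had the A and B boxes. Its member at chr6:27261336-27262003 had 112, 236 and 307 fragments in wild-type, POLK-/- and DDX23-/- cells, while 3 others in all 3 lists had 16 to 19, 41 to 68 and 91 to 106. The fifth had 30 fragments in POLK-/- and 82 in DDX23-/- cells and no wild-type peak. SCAND3, derived from a transposase, held 4 members, of which 3 were in all 3 lists and had the boxes. Its exon member at chr6:28556820-28557618 had 86, 230 and 278 fragments. The SCAND3 intron member at chr6:28574631-28575338 had 62, 166 and 278, and the fourth, without the boxes, had 30 in DDX23-/- cells alone.

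OR1F1 held 4 members close together, and the pair nearest the gene start had the boxes. The member at chr16:3239356-3239985 had 37, 134 and 185 fragments in wild-type, POLK-/- and DDX23-/- cells. The pair farther in had no wild-type peak, with 80 and 242 fragments at chr16:3243617-3244318 and 24 and 50 at chr16:3245975-3246450. MORF4L1, a subunit of chromatin-modifying complexes, held a member with the boxes at chr15:79152481-79153337, with 36, 104 and 175 fragments. A neighbour without them, at chr15:79151609-79152287, had 56 in POLK-/- and 105 in DDX23-/- cells and no wild-type peak. CTC1, a subunit of the CST complex at telomeres, had 74, 197 and 260 fragments at chr17:8129272-8130686, with the boxes. Of the members in both knockouts without a wild-type peak, the one with the highest −log10 p in either list lay in CROCC, which encodes the ciliary rootlet protein, with 31 fragments in POLK-/- and 185 in DDX23-/- cells, and it also held the boxes and had 1 near-identical copy.

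The 3 members of the 19 that lacked the boxes were in HPD, MORN3 and ENSG00000289768, the last named after their values were seen. HPD, an enzyme of tyrosine breakdown, held the only gene end member in all 3 lists, chr12:122277172-122277605, with 21, 46 and 69 fragments and enrichments of 22.3, 11.3 and 15.2 in wild-type, POLK-/- and DDX23-/- cells. Its enrichment was thus highest in wild-type cells, as it was in 2 of the 19 and lowest in 15.

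At the members away from transcript starts that carried A and B boxes, median enrichment was higher in the knockouts than in wild-type cells. Over both kinds together, at the 19 in both lists the POLK-/- to wild-type ratio had a median of 1.94 (95% interval 1.04 to 2.36), against 0.828 (0.728 to 1.01) at the 72 members near transcript starts, 0.870 at merged regions of gene starts and 0.941 over all 1114 regions in both lists. The DDX23-/- to wild-type ratio had a median of 2.04 (1.32 to 3.61) at 22 members, against 1.22 (1.00 to 1.53) at 93 near transcript starts and 1.24 over all 1341 regions. Both ratios use the same wild-type list. The DDX23-/- to POLK-/- ratio had a median of 1.38 (1.05 to 1.77) at 44 members away from and 1.39 (1.27 to 1.61) at 161 near transcript starts. The intervals come from order statistics over regions, which are not replicates of a genotype. The groups compared also differed in strength, with a median of 50 wild-type fragments at the 19 and 14 at the 72. The part of this in the ratios was not tested.

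Counts past 2-fold gave the same order. Of the 19 members away from transcript starts, 8 were at least 2-fold higher in POLK-/- than in wild-type cells (42.1%) and 1 at least 2-fold lower, against 13.1% and 15.4% of all shared regions. For DDX23-/- against wild-type cells 11 of 22 were higher (50.0%) and 1 lower, against 23.3% and 4.77%. For DDX23-/- against POLK-/- cells 12 of 44 were higher (27.3%) and 1 lower, against 26.3% and 4.08%. The 16 members away from transcript starts with the A and B boxes had median ratios to wild-type of 2.03 (1.19 to 2.55) in POLK-/- and 2.21 (1.63 to 4.21) in DDX23-/- cells. Those without the boxes had a median DDX23-/- to wild-type ratio of 1.10 (0.431 to 2.08, n = 6), with 1 at least 2-fold higher and 1 at least 2-fold lower. The merged regions with the boxes that are no members had 1.39 (1.26 to 1.50, n = 241) and 1.60 (1.43 to 1.77, n = 244). SLC47A1 had enrichments of 33.2, 66.3 and 69.9 in wild-type, POLK-/- and DDX23-/- cells, and ARMH4 had 48.5, 52.3 and 190.

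**Figure D4:**
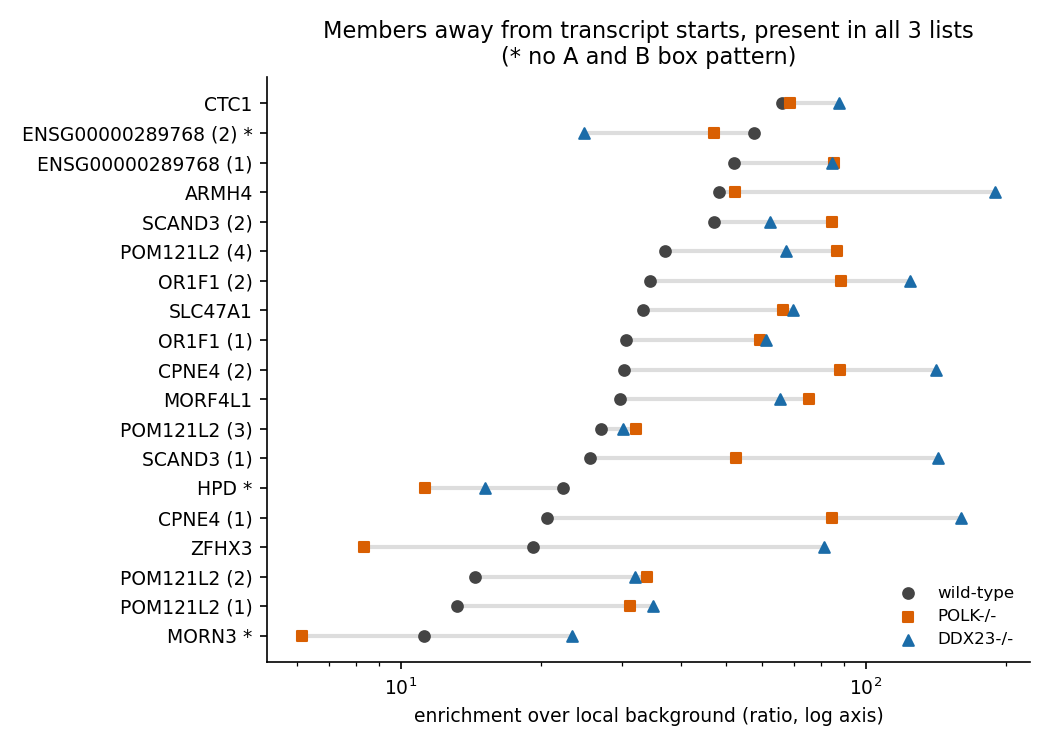
Enrichment over the local background (ratio, log axis) in the wild-type (circles), POLK-/- (squares) and DDX23-/- (triangles) lists at the 19 members more than 1 kb from any transcript start and in all 3 lists, in the order of the wild-type value. Numbers in brackets tell apart members of the same host by rising wild-type value, and a star marks the 3 without A and B boxes. The wild-type value is the lowest of the 3 in 15 rows and the highest in 2, HPD and the second ENSG00000289768 member.

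The members away from transcript starts that were in the wild-type list alone were narrow and had few fragments. Their median enrichment was 17.0, against 15.7 over all member peaks of that list. The 29 peaks had a median of 11 fragments (7 to 20) and a median width of 230 bp (228 to 334), whereas the 19 in all 3 lists had a median of 50 wild-type fragments and a width of 473 bp. None of the 29 had the wide A and B box pattern (0 of 29, exact upper bound 11.9%), while 1, in DIP2B, held the fixed letters of the narrow one. The strongest lay in SLC22A23, a gene of the organic ion transporter family, with 20 fragments at chr6:3356349-3356585. DNAH17, a dynein heavy chain of cilia, followed with 16 fragments at chr17:76537424-76537666, and ESR1, the estrogen receptor alpha, with 14 at chr6:152022667-152022897. All 3 lay in introns, and their enrichment was 16.5, 17.0 and 21.6.

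Members away from transcript starts in 1 knockout list also had few fragments. All member peaks had a median of 33 fragments and an enrichment of 10.7 in the DDX23-/- list, and 27 and 11.2 in the POLK-/- list. The 89 of the DDX23-/- list alone had a median of 28 fragments (16 to 66) and a median enrichment of 8.91. The 20 of the POLK-/- list alone had a median of 20 fragments (16 to 34) and 13.4. The strongest of these 20 were in CA5A, a mitochondrial carbonic anhydrase, and PTPRS, a receptor tyrosine phosphatase, with 34 fragments each and enrichments of 19.8 and 17.0. Repeated sequence was unevenly spread over these groups. Near-identical copies of the 101 bases about the summit were found for 9 of the 20 POLK-/- only members (45.0%, 23.1 to 68.5), 6 of the 89 DDX23-/- only members (6.74%, 2.51 to 14.1), 4 of the 29 wild-type only members (13.8%, 3.89 to 31.7) and none of the 19 in all 3 lists (upper bound 17.6%). Among the 546 members near transcript starts the share was 1.47%. A run of letters of the Alu repeat (TAATCCCAG) lay within 150 bp of the summit in 7, 9, 5 and 2 of these 4 groups, or 35.0%, 10.1%, 17.2% and 10.5%, against 9.42% of the windows. Of the 25 members in both knockout lists only, 4 had copies (16.0%, 4.54 to 36.1) and 7 had the Alu letters (28.0%, 12.1 to 49.4). The 3 members of the wild-type and DDX23-/- lists had neither. Reads that match several places were placed by the authors' aligner, and the part of this in the lists was not tested.

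Base composition set these groups apart. The 300 bp about the summit had a median GC content of 67.3% (quartiles 62.4 and 71.0) at the 546 members near transcript starts, equal to the 67.3% of merged regions at gene starts. At the 185 other members it was 54.7% (47.0 to 62.7), and the windows had 40.7%. Within these 185 it ran from 45.7% in those in all 3 lists, through 50.0% in those in both knockouts and 52.3% in those of the POLK-/- or the wild-type list alone, to 60.0% in those of the DDX23-/- list alone and 65.3% in the 3 of the wild-type and DDX23-/- lists. The observed to expected ratio of CpG was 0.798 near transcript starts and 0.535 away from them.

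**Figure D5:**
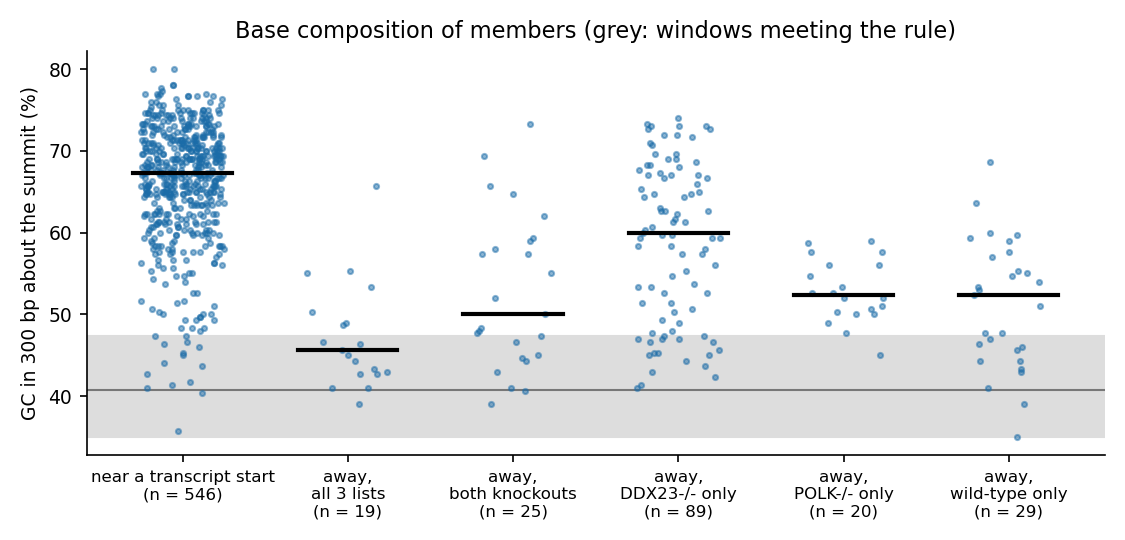
GC content (%) in 300 bp about the summit for each member (points) with the group median (bar), for members near a transcript start and for members away from one by the lists that held them. The 3 members in the wild-type and DDX23-/- lists only are not drawn. The grey band spans the quartiles of windows meeting the rule and the grey line their median of 40.7%. The medians are 67.3% near transcript starts and 45.7% in the members away from them in all 3 lists.

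Promoter letters were counted in all sequences and in those of at least 60% GC. The GC box (GGGCGG) lay within 150 bp of the summit in 71.8% of the members near transcript starts, 34.6% of the others, 74.0% of merged regions at gene starts and 4.45% of the windows. Among sequences of at least 60% GC these shares were 80.4% (370 of 460), 78.9% (45 of 57) and, in the windows, 33.6%. The G-quadruplex pattern (4 runs of at least 3 G, loops of 1 to 7 bases) was in 38.5%, 14.6% and 3.38% of members near starts, other members and windows, and at 60% GC or more in 43.7%, 38.6% and 30.9%. The core letters of the CTCF motif (AGNNGGCGC) were in 18.7%, 8.11% and 0.772%, and at 60% GC or more in 20.4%, 12.3% and 6.25%. The ETS letters (CCGGAAG) were in 12.6%, 5.41% and 0.728%, and at 60% GC or more in 62 of 460, 8 of 57 and 3.82%. At gene starts the ETS letters were in 20.3% of regions. The AATAAA letters of the polyadenylation signal were in 5.13%, 20.5% and 42.7%, and at 60% GC or more in 2.61%, 8.77% and 2.57%. The CCAAT letters were in 35.9%, 32.4% and 36.3%, but at 60% GC or more in 33.7%, 29.8% and 16.7%. With that limit the members were above the windows, although GC content above 60% was not matched. Both strands were searched for every motif. A match is a description of letters and not of a bound factor.

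The other letters of the fixed list were mostly rarer, apart from the A box core. In the same order of members near starts, other members and windows, the A box core alone was in 40.3%, 34.1% and 11.4% (44.1%, 40.4% and 37.2% at 60% GC or more), the B box core alone in 1.28%, 13.0% and 2.40%, the E-box CACGTG in 7.51%, 8.65% and 2.88%, and the AP-1 letters TGANTCA in 3.85%, 9.73% and 9.03%. The cyclic AMP element TGACGTCA was in 2.20%, 0.541% and 0.106%, the NRF1 letters GCGCATGCG in 2.01%, 2.70% and 0.0168%, and the YY1 letters AAGATGGCG in 3.66%, 0 and 0.101%. At 60% GC or more the E-box was in 8.04%, 12.3% and 7.99%, the AP-1 letters in 3.26%, 5.26% and 4.23%, and the B box core in 0.435%, 0 and 0.601%. With that limit the cyclic AMP element was in 2.39%, 1.75% and 0.226%, the NRF1 letters in 2.17%, 7.02% and 0.149%, and the YY1 letters in 4.35%, 0 and 0.191%. The ZNF143 letters ACTACAATT were found in 1 member and the telomere letters TTAGGGTTA in none. The narrow tRNA-type pattern was found near the summit of 8 members, in CUBN, GSTO1, DIP2B, ANAPC5, CARS2, H2BC6, POM121L2 and SCAND3, and only the last pair were in all 3 lists.

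Presence in the lists followed the length of the lists. Of the 731 members, wild-type peaks overlapped 153 (20.9%, 18.0 to 24.1), POLK-/- peaks 244 (33.4%, 30.0 to 36.9) and DDX23-/- peaks 654 (89.5%, 87.0 to 91.6), against 23.3%, 39.2% and 95.4% of all merged regions. With the 1468 strongest peaks of each list, there were 262 members by the rule and the shares were 58.8%, 52.7% and 57.3%. Member peaks of the wild-type list were slightly narrower than its other peaks, with medians of 285 (262 to 315) and 332 bp (323 to 341). For POLK-/- the medians were 318 (301 to 338) and 351 bp (346 to 360), and for DDX23-/- 331 (315 to 344) and 349 bp (343 to 354). In each list the intervals of members and other peaks overlapped little or not at all.

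Hosts were spread over many families. Of the 672 genes that led a member, 625 had 1, 40 had 2 and 7 had 3 or more. Counting all overlapped genes, members touched 708 of 20149 protein-coding genes (3.51%). The share was 15.4% for HOX genes (6 of 39, in 5 members), which set body position in development, and all 5 of these members lay near transcript starts. It was 5.09% for SLC transporters (19 of 373) and 2.91% for ZNF zinc finger genes (15 of 515). Among 89 RBM, SRSF and HNRNP genes of RNA binding 4 had a member, as did 2 of 20 KDM genes, 1 of 17 MUC genes and, of 20 DNA polymerase genes, POLD3. None was found in 54 DDX or DHX helicase genes, 152 KRT genes, 53 clustered protocadherin genes, 44 COL genes, 11 HDAC genes or 5 KMT2 genes, nor in POLK or DDX23.

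The limit of 1 kb fell within a continuous range. The members nearest above it lay in FAM177A1, BCORL1 and RASIP1, at 1004, 1005 and 1011 bp from a gene start, with 33, 49 and 26 fragments in the DDX23-/- list. Regions just below it lay in KCTD2 and PTMA, at 994 and 993 bp, with 310 and 24 fragments in the same list.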

How the data were processed

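ChIP-Seq peaks of HEK293T cells were taken from 3 deposited narrowPeak lists, 1 per genotype, of 12 samples labelled R_. The submitters' processing notes name Bowtie2, MACS2, bedtools, deepTools and hg19, without versions. The control, threshold and pooling are not given in the sources used here. The authors deposited for each peak a start, an end and a summit, a fold (a ratio of scaled fragments plus 1 to local background plus 1), the −log10 of its p and q, and a score (about 10 times the −log10 q). The labels assign each list to the sample numbered 1, but the numbers inside peak names differ for the wild-type and DDX23-/- lists.

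From fold and p, whole fragments at each summit and their background were solved by the MACS2 formulas with 1 scale per list (1.00, 0.736 and 0.660 for wild-type, POLK-/- and DDX23-/-). The background was solved from the fold, so the fold is matched by construction and only the −log10 p is a check. It was reproduced within 0.002 for 1468, 2451 and 5945 peaks (all peaks). The method was tested on simulated data, with a narrower range of fragments and background than in the peaks. The weakest peaks rested on 6, 10 and 14 fragments. Library totals are unknown, so precision is that of these counts. Enrichment is scaled fragments over background.

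Peaks overlapping by at least 1 bp were merged. Regions were placed by GENCODE 44 lifted to GRCh37, in the order gene end, exon, intron. RefSeq starts (100 bases, GRCh38.p14) were matched by sequence only. Copies of 101 bp were sought by blastn 2.17.0 (word size 24, identity of 95% or more, 80% or more of the length covered). Python 3.11.15, numpy 2.4.6, pandas 2.3.3, scipy 1.17.1 and pysam 0.24.0 were used.

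The members, lists and motifs were chosen with earlier results of these data known. Named were the 5 members per class in all 3 lists with the highest lowest −log10 p, the 3 strongest of each single list and of both knockouts only, hosts with 3 or more members, members in POLK or DDX23 or with the narrow tRNA-type pattern, fixed host families and the 3 regions on either side of the limit. A few items that these rules chose are not reported here. The wider A and B box pattern, the Alu letters, the copies, the RefSeq match, the split at transcript starts and the count of exons were added after seeing the data. The alternatives were a stricter q, equal list lengths, other chromosomes, distances, starts, merging, exons and windows, and the deposited fold.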

Additional observations from a re-analysis of the deposited data

How the results depend on the processing

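No paired analysis was possible because each genotype has 1 list. Of 223 values recomputed with another setting, 165 stayed within the 95% interval of the reported value (counts within 1.5 times). A reversal was scored only for median ratios whose interval left out 1, and none of these reversed. The stricter deposited q, merging within 100 bp and leaving out contigs other than chromosomes 1 to 22 and X moved none. With 1468 peaks per list there were 262 members. Wild-type peaks overlapped 58.8% of them, POLK-/- peaks 52.7% and DDX23-/- peaks 57.3%, the median widths in the knockout lists 377 and 499 bp, the median GC content 63.7% and the share near a transcript start 70.6%. The B box was in 6.87%, the GC box in 53.8%, NRF1 letters in 0.763%, ETS in 8.02%, CCAAT in 40.1%, CTCF core in 13.4%, AATAAA in 11.5% and the G-quadruplex pattern in 26.3%. More than 5 kb from gene starts there were 438 members, 71.0% near a transcript start and 1.60% with YY1 letters.

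More than 1 kb from any transcript start there were 185 members. Their gene end, exon and intron shares were 3.78%, 8.65% and 87.6%, the wild-type and DDX23-/- lists held 27.6% and 73.5%, the wild-type median width was 237 bp and the GC content 54.7%. The A box was in 34.1%, B box 13.0%, GC box 34.6%, cyclic AMP element 0.541%, ETS 5.41%, AP-1 9.73%, YY1 and ZNF143 0, CTCF core 8.11%, AATAAA 20.5%, narrow tRNA-type pattern 2.16% and G-quadruplex pattern 14.6%. Placed by the summit, exons and introns took 44.4% and 54.3%, and with canonical exons 50.9% and 47.1%. A gene end of 500 bp gave a gene end share of 1.09%.

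With 75 bp either side of the summit, a shorter window, the A box was in 23.4%, B box 2.46%, GC box 40.1%, E-box 4.38%, NRF1 1.09%, ETS 6.70%, CCAAT 18.2%, AP-1 1.92%, ZNF143 0, CTCF core 9.44%, AATAAA 3.83% and G-quadruplex pattern 16.8%. With the deposited fold, which adds 1 to both terms, the median ratios over all shared members were 1.21 for POLK-/- and 1.82 for DDX23-/- over wild-type, against 0.997 and 1.35 by enrichment. Of alternatives added after seeing the data, the fixed box letters gave 10.5% in place of 84.2% of the 19 members in all 3 lists, and equal list lengths gave 88.9%. Weak peaks on 6 to 14 fragments limit what the absence of a peak can show. Beyond the shorter windows and smaller lists just described, the cause of these moves was not tested.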

Other observations

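Besides those in PSG9, the members with the most near-identical copies of their summit sequence lay in PLEKHA6 (5488 copies, 27 fragments in the POLK-/- list), GSTO2 (4075 copies, 10 fragments in the wild-type list), CCDC192 (2727 copies, 20 fragments in the DDX23-/- list) and PHF20 (2377 copies, 20 fragments in the POLK-/- list). Each was in a single list. ZFHX3, a transcription factor gene, had a member with A and B boxes whose enrichment was 19.3 in wild-type, 8.34 in POLK-/- and 81.2 in DDX23-/- cells, from 24, 34 and 169 fragments. CPNE4, a calcium-dependent membrane-binding protein, had a pair of intron members with the boxes, at chr3:131947633-131948362 with 50, 115 and 312 fragments and at chr3:131950329-131951042 with 55, 110 and 276. Chromosome 19 held 6.43% of the members and 2.42% of the windows meeting the rule, and chromosome 13 held 0.410% and 2.57%. The genes and chromosomes in these sentences were picked after their values were seen.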
